A study of Mus musculus with 33 samples.

Results

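The comparison described here is of ChREBP knockdown in livers without hepatocyte glucose-6-phosphatase (G6pc), the model of glycogen storage disease type Ia, over all genes and in particular outside the best known programs. It used 17 of the 33 liver RNA libraries of the series, chosen by their titles, 9 from the group shChREBP/L-G6pc-/- and 8 from the group shSCR/L-G6pc-/-. All mice were male C57BL/6J animals, aged 13 to 18 weeks when the hairpin was given, with both G6pc alleles flanked by lox sites. The knockouts also carried SA-creERT2, an inducible Cre that is driven by the albumin promoter and therefore acts in hepatocytes, and the L-G6pc+/+ littermates had no Cre. Every mouse received an AAV2/8 vector with a U6-driven short hairpin RNA (shRNA), directed against ChREBP (shChREBP) or scrambled (shSCR), and later tamoxifen injections. Livers were taken from fed mice of the study's short-term cohort, not of its prolonged ones. The 16 L-G6pc+/+ libraries, 8 for each hairpin, were used to see whether a gene responded alike in livers with the enzyme. The labels do not say that each library came from a different mouse, so the p-values measure the spread between these libraries.

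ChREBP, encoded by Mlxipl, is a transcription factor that is activated by phosphorylated sugars and switches on glycolytic and lipogenic genes in hepatocytes. Without glucose-6-phosphatase, hepatocytes lack the enzyme that makes free glucose from glucose-6-phosphate, and glucose-6-phosphate, an activator of ChREBP, builds up. A short hairpin RNA is cut in the cell to a small RNA that directs the breakdown of a fully matching transcript. Small RNAs of this size can also lower transcripts that pair only with the bases near their 5′ end, mostly through sites in the 3′ untranslated region (3′ UTR).

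The 17 libraries held 1497843 to 2778910 counts. Mlxipl lay between 514 and 633 CPM (counts scaled to the library's total, TMM-adjusted) in the 8 shSCR/L-G6pc-/- libraries, with a median of 578 CPM, and between 216 and 500 CPM in the 9 shChREBP/L-G6pc-/- libraries, with a median of 441 CPM. The groups did not overlap, and the log2 fold change was -0.57 ± 0.13 (SE, adjusted p = 0.0042, edgeR quasi-likelihood test). Pklr, the liver pyruvate kinase and a classic ChREBP target, was lower by -0.58 ± 0.16 (adjusted p = 0.017). The deposited values count 3′ ends, so G6pc, with medians of 276 CPM and 218 CPM (log2 fold change -0.52, adjusted p = 0.26), is not a check of a deletion upstream in the gene. Libraries 29, 30, 32 and 33 of the shChREBP/L-G6pc-/- group stood apart on the first principal component of all 33 libraries, at -35.6 to -26.8 against -7.70 to 1.47 for the other 5, and counts and genes below are given with and without them where the call depends on them. Of the hepatocyte markers, 4 of 12 tested (Alb, Ttr, Ahsg and Fgb) were called lower and none higher, with a median log2 fold change of -0.31, and none was called without libraries 29, 30, 32 and 33 (median -0.14). Their summed level ran from 59317 to 69871 CPM with shSCR and from 47833 to 71461 CPM with shChREBP. Of the 15 tested Kupffer cell and macrophage markers 3 were called higher (median 0.33), and of the 18 tested stellate cell and fibroblast markers 1 was (median 0.36). Over all genes tested, 3.33% were called higher and 4.23% lower. Their summed levels ran from 1129 to 2546 CPM and from 629 to 1059 CPM with shSCR, and from 1753 to 2659 CPM and from 734 to 1187 CPM with shChREBP. In whole liver, fewer cells of a type and less RNA in each of them cannot be told apart.

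Of 10179 genes tested, 770 (7.56%) were called at an adjusted p below 0.05, 339 (3.33%) higher and 431 (4.23%) lower with shChREBP than with shSCR. The median log2 fold change of all genes was 0.01. Of the called genes, 82 belonged to the lists of NRF2, mitotic, replication, p53, inflammatory, ChREBP or HNF4A target genes and 688 (89.4%) lay outside them. These 7 lists had only 25 to 52 tested members each, so most of all tested genes lie outside them too. By list, 4.0% to 43.5% of the tested members were called, beside 7.56% of all genes. A further 181 belonged to 79 lists of other liver programs, and 507 to no list. The changes were mostly small, with 137 of the 770 beyond 2-fold in size. Without libraries 29, 30, 32 and 33 the same test called 106 genes (1.02%), 36 (0.346%) higher and 70 (0.673%) lower, and 102 of these were among the 770 with the same direction. The test of the difference between genotypes called 8 genes (0.0786%).

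The clearest falls were Aplp2, Ttpa and Slc10a1, and their 3′ UTRs were compared with the hairpin that the mice received. The 4 strands of the hairpins are shown because the comparison turns on their first bases. Each is printed 5′ to 3′ from the study's designed sequences, with the first 7 bases of each 5′ arm in capitals.
shChREBP 5′ arm: GATGTAGtttgaagatgtgggt
shChREBP 3′ arm: acccacatcttcaaactacat
shSCR 5′ arm: GTTGTAAgtggaggtttaagt
shSCR 3′ arm: acttaaacctccacttacaac

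The 5′ arm of shChREBP is the strand antisense to Mlxipl. Its last 21 bases pair with acccacatcttcaaactacat in exon 8 of Mlxipl (GRCm38, chr5:135128544-135128564, plus strand), which lies outside the 3′ UTR. The first 7 bases of this arm pair with CTACATC. Which base the cell makes the first of this strand was not measured. Called falls with an annotated 3′ UTR were ordered by p, and CTACATC was found in the longest such UTR of 5 of the first 10. It was in 6 of the first 20, 7 of the first 50 and 21 of the first 100, beside 7.56% of all tested genes with a 3′ UTR. The sites of those 5 genes are shown with the 7 matching bases in capitals, together with that of Pigg, a further called fall. All coordinates are of GRCm38 and the sites read along the gene's strand.
Aplp2 proximal site, chr9:31150755-31150779, minus strand: cagaaggcctcatcCTACATCctgc
Aplp2 distal site, chr9:31149577-31149601, minus strand: tgtacagaacttaaCTACATCaata
Ttpa, chr4:20029341-20029365, plus strand: aaaacttaacacaaCTACATCaatg
Slc10a1, chr12:80953310-80953334, minus strand: gctctatgaaacagCTACATCtgat
Bola1, chr3:96196800-96196824, minus strand: ctgagaataaactaCTACATCacta
Ptprd, chr4:75942548-75942572, minus strand: tgagactctctaacCTACATCagaa
Pigg, chr5:108348406-108348430, plus strand: gtctgctacaggggCTACATCaaag

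Aplp2 (amyloid beta precursor-like protein 2, a membrane protein, chr9:31149557-31211815) held CTACATC at 2 places and was the gene with the smallest p of all. It was measured at 283 to 397 CPM (median 326) in the 8 control libraries and at 72.2 to 109 CPM (median 88.6) in the 9 shChREBP libraries. The ranges were far apart, and the 4 libraries that stood apart, at 72.2 to 88.6 CPM, were not separate from the other 5, at 77.4 to 109 CPM. The log2 fold change was -1.88 ± 0.12 (adjusted p = 5.6e-14), or 3.67-fold lower, and it stayed at -1.78 without those 4 libraries (adjusted p = 1.5e-09). In the L-G6pc+/+ livers Aplp2 was lower by -1.25 with the same hairpin (adjusted p = 1.2e-08).

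Ttpa, the transfer protein that loads vitamin E into lipoproteins, lay at 296 to 532 CPM (median 428) with shSCR and at 99.2 to 216 CPM (median 142) with shChREBP. The groups did not overlap, and the log2 fold change of -1.51 ± 0.14 (adjusted p = 5.2e-09) stood beside -1.61 in L-G6pc+/+ livers (adjusted p = 5.9e-09). The test of the difference between genotypes gave an adjusted p of 0.90. Slc10a1, the main hepatocyte carrier for bile acid uptake and a member of the HNF4A list, lay at 103 to 196 CPM (median 149) with shSCR and at 21.4 to 68.4 CPM (median 38.1) with shChREBP. Its groups did not overlap either, at a log2 fold change of -1.90 ± 0.19 (adjusted p = 2.8e-08) and of -1.15 in L-G6pc+/+ livers (adjusted p = 8.8e-04). Bola1, a mitochondrial protein of iron-sulphur cluster handling, lay at 24.1 to 36.5 CPM with shSCR and at 4.96 to 18.6 CPM with shChREBP, again without overlap, at -1.28 ± 0.17 (adjusted p = 9.0e-06).

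Ptprd, a receptor tyrosine phosphatase, completed these 5 genes at -0.69 ± 0.10 (adjusted p = 1.5e-05), with 188 to 275 CPM in the controls and 105 to 168 CPM in the shChREBP livers. B230219D22Rik was lower by -0.65 ± 0.09, Tmem147, a membrane protein of the endoplasmic reticulum, by -0.56 ± 0.10, and Pigg, an enzyme of glycolipid anchor synthesis, by -1.36 ± 0.25. Each was called and had CTACATC in its longest annotated 3′ UTR. The 25 bases around the Tmem147 site span 121 bases of the genome, so they cross a splice junction and may not be 3′ UTR in other transcripts of the gene. All 8 genes, picked for display after their values were seen, were also called lower without libraries 29, 30, 32 and 33. In the L-G6pc+/+ livers 7 of the 8 were called lower too, the exception being Pigg at -0.04 (adjusted p = 0.95, and 0.13 for the difference between genotypes).

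**Figure D1:**
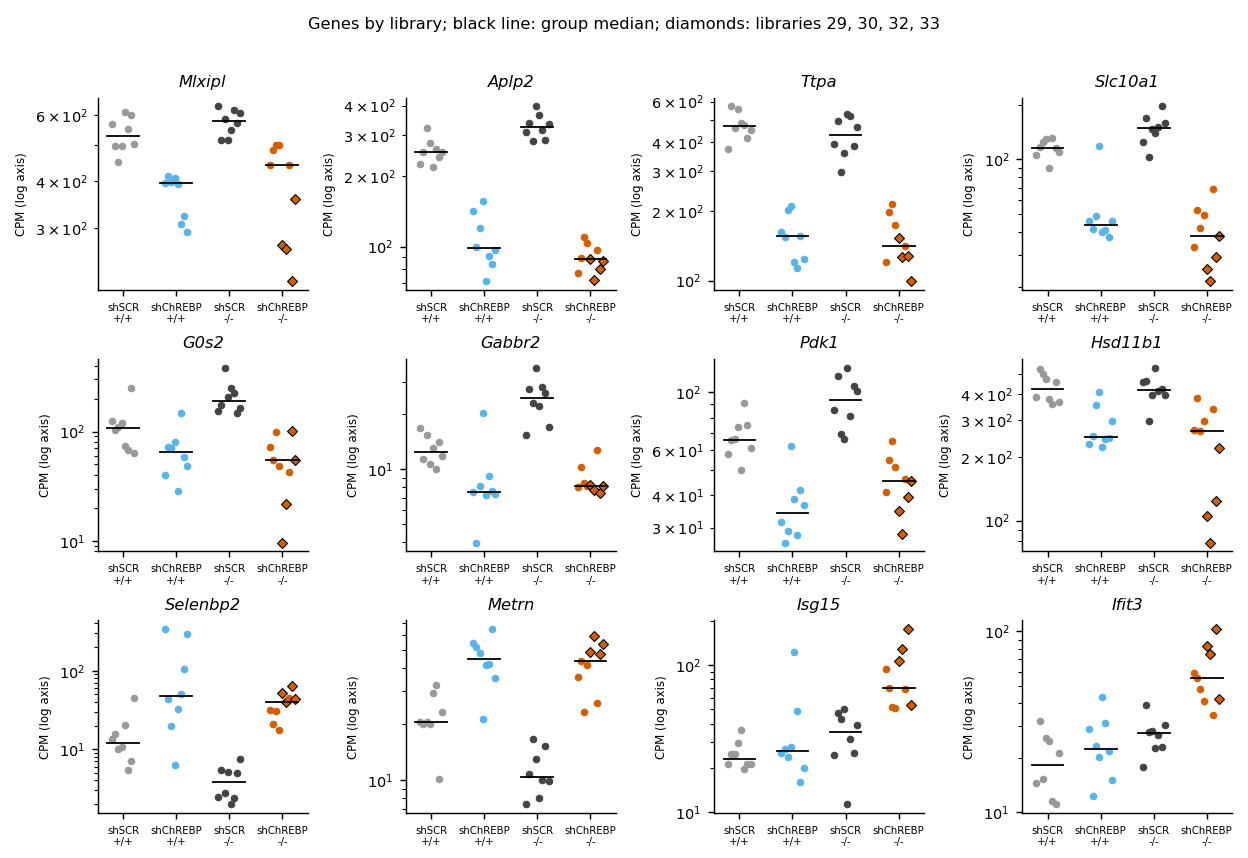
Expression of 12 genes in every library, in CPM on a log axis, by hairpin and G6pc genotype (8, 8, 8 and 9 libraries). Points are libraries, black lines are group medians, and diamonds are libraries 29, 30, 32 and 33. Aplp2, Ttpa and Slc10a1 were low in all 9 shChREBP/L-G6pc-/- libraries, while Hsd11b1 was lowest in the diamonds.

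Over the whole table, 9670 tested genes had an annotated 3′ UTR and 731 of them (7.56%) held CTACATC. Among the 412 called falls with a 3′ UTR the word was in 74 (18.0%), and among the 325 called rises in 14 (4.31%). Read the other way, 10.1% of the genes with the word were called lower, against 3.78% of those without it. The median log2 fold change was -0.05 for the 731 genes and 0.01 for the rest, so most genes with the word moved little. The L-G6pc+/+ libraries, which share no sample with this comparison, gave medians of -0.03 and 0.03, and the word was in 47 of their 307 called falls (15.3%) and in 15 of their 196 called rises (7.65%). Of the 91 genes with a 3′ UTR that were called lower in both genotypes, 24 (26.4%) held it. Without libraries 29, 30, 32 and 33, it was in 10 of 66 called falls (15.2%) and in 2 of 35 called rises.

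The word was chosen after a search of these data, so the shares above are a description and carry no test. Of 16144 words of 7 bases that at least 50 of these 3′ UTRs hold, CTACATC ranked 13 from the lowest by the mean log2 fold change of the genes that hold it and 35 in L-G6pc+/+ livers, and it ranked 1 in both when the mean was weighted by the square root of the number of genes. Long 3′ UTRs hold more words, and the median length was 2820 bases with the word and 1306 bases without it. Among genes with a 3′ UTR of 1 to 854, of 855 to 2108 and of 2109 bases or more, 15.8%, 9.95% and 9.52% of the genes with the word were called lower, in that order, against 3.95%, 3.53% and 3.87% of those without it. The reverse complement GATGTAG, held by 920 genes, was in 8.98% of the falls and 9.51% of all genes. CTACATCA, 1 base longer, was in 26 falls (6.31%) and in 2.15% of all genes. Its added base pairs with no base of the arm as printed.

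All other windows of 7 bases along both hairpins were read in the same way. In the other 47 windows of shChREBP, between 2.75% and 5.83% of the genes with a match were called lower, and in the 48 windows of shSCR between 2.75% and 6.45%. The first window of shChREBP, at 10.1%, stood above all of these. Its word had been picked from these same calls, so a high place was partly built in. The windows are not independent, since neighbours overlap and those within the shared loop are the same in both hairpins. The next window, bases 2 to 8 of the arm as printed, gave 5.61%, against 4.11% of the genes without its match. Bases 2 to 8 are those usually taken as the pairing region of a small RNA, counted from its first base. If the strand starts as printed, that region thus lay within the range of the other windows. Whether the pairing has a part in the lower transcript levels was not tested.

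**Figure D2:**
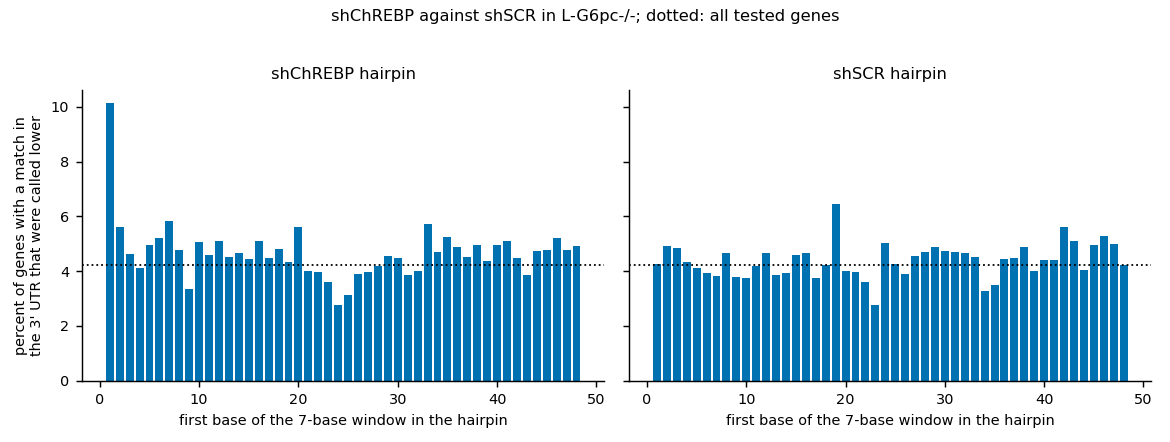
Percent of the genes with a 3′ UTR match to each 7-base window of a hairpin that were called lower, by the first base of the window, for shChREBP (left) and shSCR (right). The dotted line is the 4.23% of all tested genes. The first window of shChREBP stands at 10.1% and every other window of either hairpin at 6.45% or less.

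Each library was also described by the mean log2 level of the 731 genes minus that of the other genes, both relative to the shSCR libraries of the same genotype. This difference was -0.12 to -0.06 in the 9 shChREBP/L-G6pc-/- libraries and -0.03 to 0.02 in the 8 shSCR/L-G6pc-/- libraries, with no overlap. In the L-G6pc+/+ livers it was -0.11 to -0.02 with shChREBP and -0.03 to 0.02 with shSCR, with a small overlap. The differences were small beside those of Aplp2 or Ttpa.

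**Figure D3:**
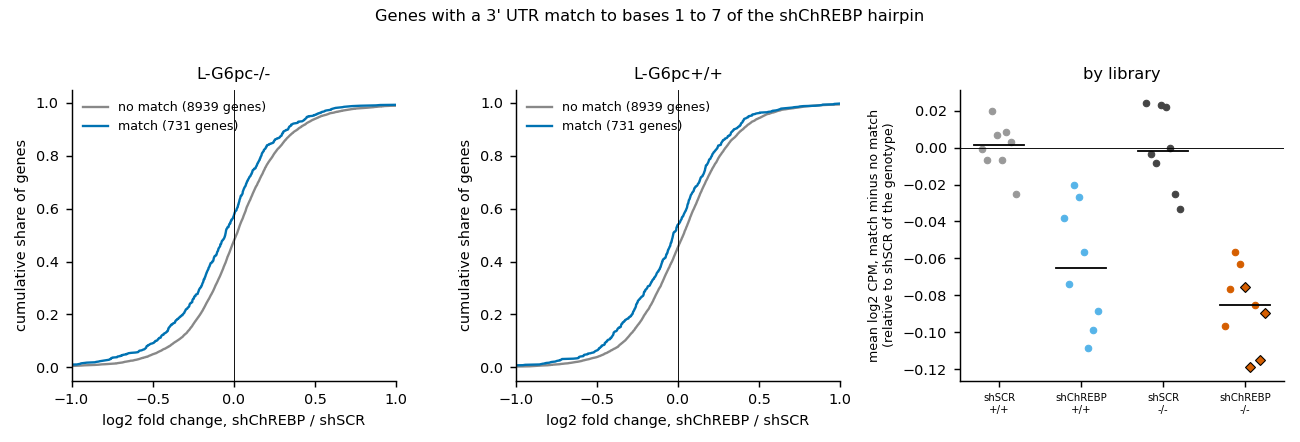
Genes with and without CTACATC in the 3′ UTR, as cumulative shares of the log2 fold change in each genotype and as the difference of mean log2 CPM in each library (diamonds: libraries 29, 30, 32 and 33). The median log2 fold change was -0.05 with the word and 0.01 without it in L-G6pc-/- livers, and the 9 shChREBP/L-G6pc-/- libraries lie below the 8 shSCR/L-G6pc-/- libraries.

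Of the 12 largest falls outside the set-aside programs, 7 were also called without libraries 29, 30, 32 and 33, namely Aplp2, Ttpa, G0s2, Gabbr2, Cyp2d40, Mup3 and Syne4. Of the 72 genes named here 15 did not overlap between the groups, against 0.707% of all tested genes. Most named genes were picked by their change in these same libraries, so a higher share was built in. G0s2, an inhibitor of adipose triglyceride lipase, lay at 148 to 383 CPM (median 191) with shSCR and at 9.59 to 101 CPM (median 54.4) with shChREBP. The groups did not overlap, at a log2 fold change of -1.93 ± 0.31 (adjusted p = 1.1e-04) and of -1.75 without libraries 29, 30, 32 and 33 (adjusted p = 0.0028). Gabbr2, a subunit of the GABA-B receptor, lay at 15.4 to 35.7 CPM (median 24.5) against 7.44 to 12.7 CPM (median 8.12), again without overlap, at -1.48 ± 0.19 (adjusted p = 3.9e-06). It had been higher in L-G6pc-/- than in L-G6pc+/+ livers under shSCR, by 0.92 on the log2 scale (adjusted p = 0.0024).

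Cyp2d40, a P450 whose close relatives may share reads with it, lay at 85.7 to 232 CPM (median 146) with shSCR and at 24.7 to 88.4 CPM (median 38.1) with shChREBP. A single shChREBP library reached into the control range, and the log2 fold change was -1.75 ± 0.21 (adjusted p = 7.1e-07). Mup3, one of the major urinary proteins, a family of near-identical genes, lay at 1686 to 3086 CPM (median 2337) against 243 to 1744 CPM (median 687), at -1.66 ± 0.28 (adjusted p = 1.6e-04). In 8 of 9 shChREBP libraries it was below all controls. Syne4, a nesprin of the outer nuclear membrane, was lower by -1.52 ± 0.30, and by -2.04 without the 4 libraries (adjusted p = 0.0017).

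The other 5 of the 12 were called in the full comparison and not without libraries 29, 30, 32 and 33. They were Lipg, the endothelial lipase, at -1.80, Eci3, a peroxisomal isomerase, at -1.57, the steroid hydroxylase Cyp17a1 at -1.53, the P450 Cyp2c54 at -1.51 and the transporter Slc22a26 at -1.49. Lipg alone among these 5 was called in L-G6pc+/+ livers too (log2 fold change -1.44, adjusted p = 0.021).

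Metrn, which encodes the secreted protein meteorin, was the rise with the smallest p among the 12 largest outside those programs. It lay at 7.43 to 16.7 CPM (median 10.4) with shSCR and at 23.3 to 59.7 CPM (median 43.8) with shChREBP. The groups did not overlap, and libraries 29, 30, 32 and 33, at 47.8 to 59.7 CPM, were all above the other 5, at 23.3 to 43.8 CPM. The log2 fold change was 1.89 ± 0.21 (adjusted p = 2.5e-07), 1.60 without those 4 (adjusted p = 1.7e-04) and 1.02 in L-G6pc+/+ livers (adjusted p = 0.0026). Under shSCR, Metrn had been lower in L-G6pc-/- than in L-G6pc+/+ livers, by -0.96 on the log2 scale (adjusted p = 0.0097).

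Selenbp2, a selenium-binding protein whose reads may be shared with Selenbp1, lay at 2 to 7.6 CPM (median 3.87) with shSCR and at 17.6 to 63 CPM (median 39.4) with shChREBP. The groups did not overlap, at 3.21 ± 0.62 (adjusted p = 9.1e-04) and 2.78 in L-G6pc+/+ livers (adjusted p = 0.0013). Enho, which encodes the secreted peptide adropin, lay at 0 to 10.7 CPM (median 5.94) against 10.5 to 24.9 CPM (median 16.6), at 1.56 ± 0.31 (adjusted p = 0.0011). Only 1 shChREBP library lay within the control range. Enho had been lower with G6pc loss under shSCR, by -1.90 (adjusted p = 9.8e-05).

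Cib3, a calcium-binding protein, had a median of 0.25 CPM in the controls, with libraries at 0, and of 7.72 CPM with shChREBP, and was called higher (adjusted p = 9.8e-05). Tuba8, an alpha-tubulin, was higher by 2.02 ± 0.34 and Neurl1b, a ubiquitin ligase for Notch ligands, by 1.97 ± 0.32. Cib3, Tuba8 and Neurl1b, as well as Metrn, Selenbp2 and Enho, were also called without libraries 29, 30, 32 and 33. The other 6 rises were not. They were Defb1, a beta-defensin, at 2.14, the male-biased fatty acid hydroxylases Cyp4a12b at 2.06 and Cyp4a12a at 1.92, which may share reads, Tnfrsf12a, the TWEAK receptor, at 1.55, the mitochondrial cysteine tRNA gene mt-Tc at 1.5 and Ubd, a ubiquitin-like modifier, at 1.47. For Tnfrsf12a the value without the 4 libraries was 0.31 (adjusted p = 0.81).

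Among the 79 lists of other programs, 3 had at least 4 and at least 30% of their tested members called, which was the rule for describing a list. They were the interferon-stimulated genes, the hypoxia genes and the genes of steroid and thyroid hormone metabolism. Their shares of 35.9%, 31.6% and 31.6% stand beside 7.56% of all genes.

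**Figure D4:**
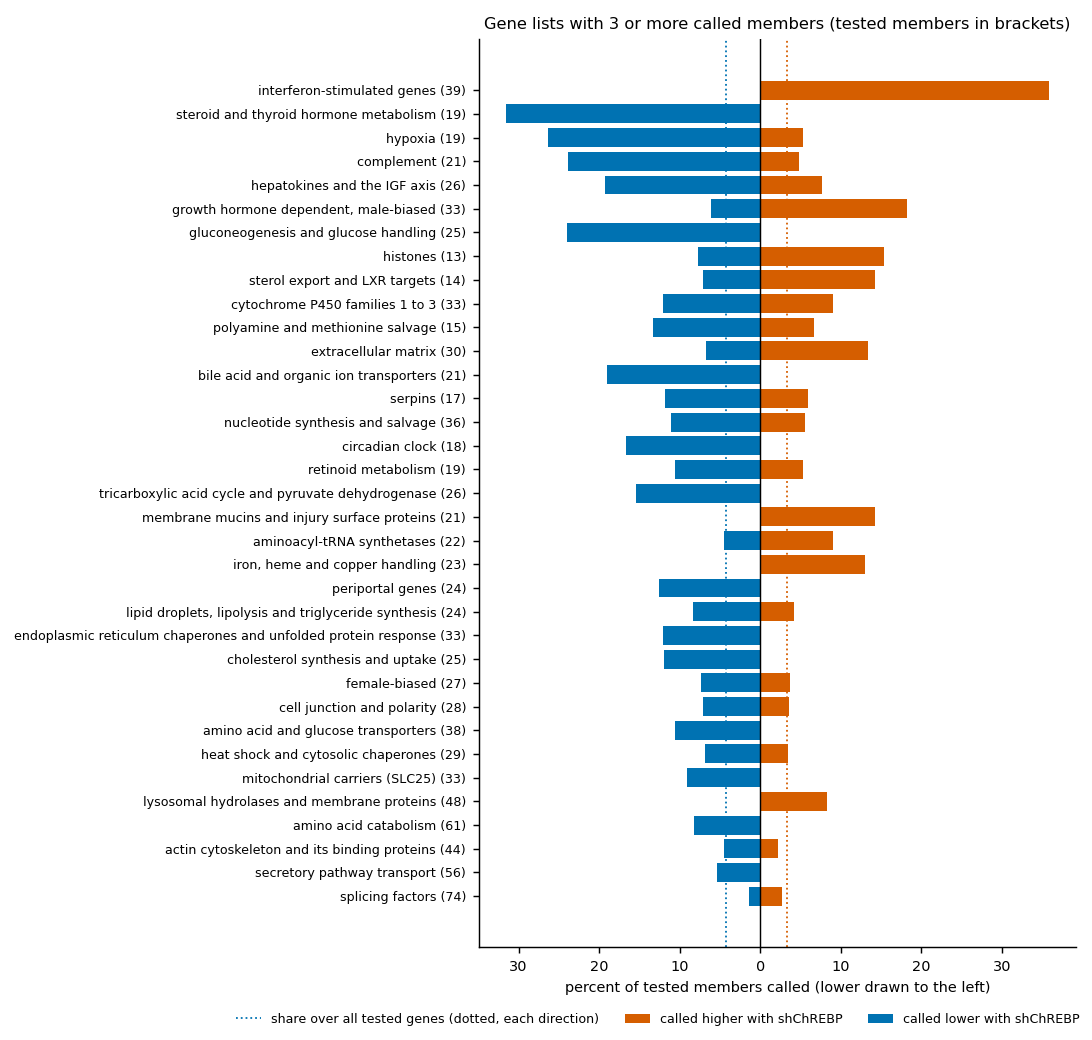
Percent of the tested members called higher (right) or lower (left) with shChREBP in L-G6pc-/- livers, for the lists with at least 5 tested members and at least 3 called. Dotted lines are the shares over all tested genes, 3.33% higher and 4.23% lower. The interferon-stimulated genes have 14 of 39 members to the right and none to the left.

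Interferon-stimulated genes encode antiviral proteins that cells make after sensing interferon. Of 39 tested, 14 were called higher and none lower, 38 had a log2 fold change above 0, and the median was 0.51. In L-G6pc+/+ livers 3 were called higher, with a median of 0.31, where 2.16% of all genes were called higher. Isg15, a ubiquitin-like modifier, lay at 11.3 to 50 CPM (median 35.2) with shSCR and at 51.3 to 175 CPM (median 69.9) with shChREBP, without overlap, at 1.39 ± 0.31 (adjusted p = 0.0037). Ifit3, which helps to block viral RNA, lay at 17.8 to 39.1 CPM (median 27.3) against 34.7 to 103 CPM (median 55.5), at 1.16 ± 0.22 (adjusted p = 8.4e-04). In 8 of the 9 shChREBP libraries it was above all controls.

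Ifit3b, a close copy of Ifit3 that may share its reads, was higher by 1.21 ± 0.21 (adjusted p = 2.0e-04). It was not called in L-G6pc+/+ livers (log2 fold change -0.45), and the test of that difference passed (adjusted p = 0.018). Ifi44, the protease Usp18 and the nucleic acid sensor Zbp1 completed the 6 named members at 1.32 ± 0.26, 0.74 ± 0.17 and 1.08 ± 0.27. The other called members included Ifit1, at 1.04, and the transcription factor Irf7, at 0.84.

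Without libraries 29, 30, 32 and 33, only Ifit3b was called among the 39 and the median was 0.35. The mean log2 level of the list, relative to the shSCR/L-G6pc-/- libraries, was 0.41 to 1.07 in those 4, -0.07 to 0.59 in the other 5 and -0.34 to 0.47 in the controls. Without library 29 or without library 32 alone, 9 members were called. Of the Kupffer cell and macrophage markers 3 were called higher in the same comparison, as given above, and without the 4 libraries none of them was called (median 0.09). The part of this cell type in the interferon list was not tested.

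**Figure D5:**
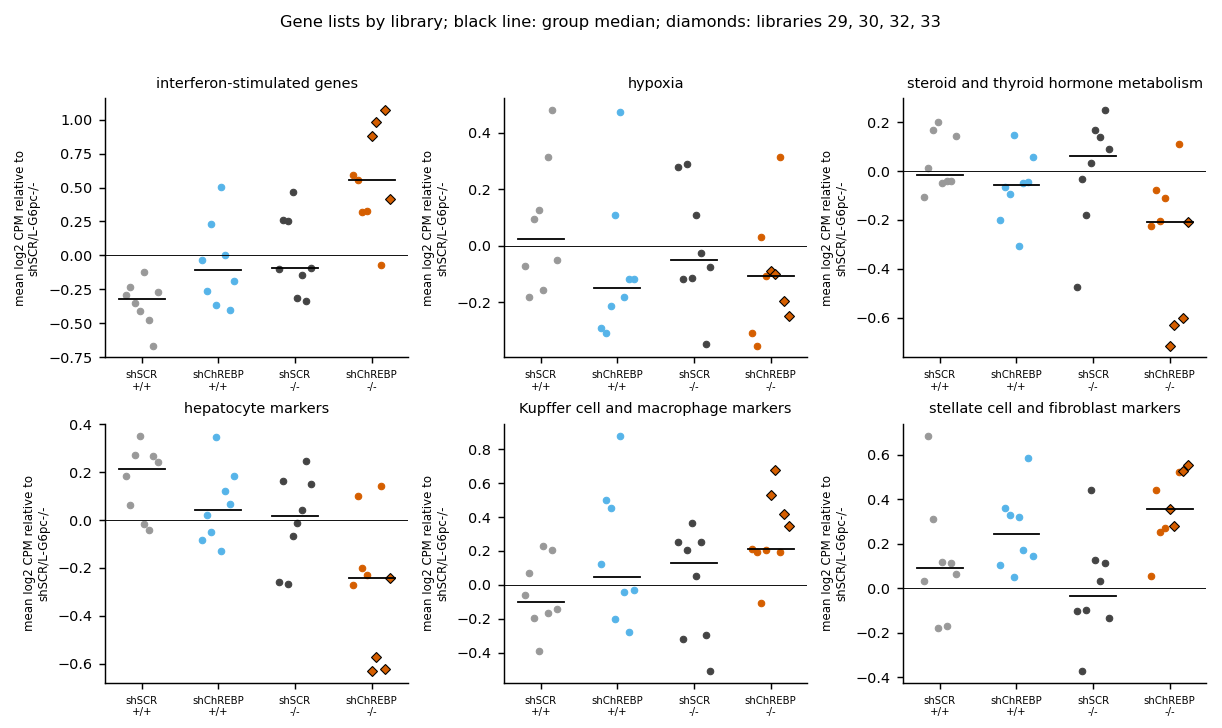
Mean log2 CPM of gene lists in each library, relative to the shSCR/L-G6pc-/- libraries, by group. Points are libraries, lines medians and diamonds libraries 29, 30, 32 and 33. For the interferon-stimulated genes the diamonds lie at 0.41 to 1.07 and the other 5 shChREBP/L-G6pc-/- libraries at -0.07 to 0.59.

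The promoters of the interferon list were read for GAAA followed by any 2 bases and GAAA again, the core of the element that interferon regulatory factors bind, on both strands from 250 bases before to 50 bases after the start (RefSeq, GRCm38.p6). It stood in 943 of 27025 promoters (3.49%), in 245 of the 7871 promoters of tested genes (3.11%), in 16 of 257 promoters of called rises (6.23%) and in 8 of 316 of called falls (2.53%). Of the 39 tested list members 27 had a promoter in the table and 15 of these (55.6%) held it, and of the 9 called members with a promoter 5 did (55.6%). A match of letters is a description and no binding site. The promoters of Isg15 and Ifit3 are shown as members that changed clearly, with the matches that do not overlap in capitals. In Isg15 a further match, GAAAccGAAA, overlaps both marked ones, and its middle bases stand in lower case.
Isg15, chr4:156200769-156201068, minus strand: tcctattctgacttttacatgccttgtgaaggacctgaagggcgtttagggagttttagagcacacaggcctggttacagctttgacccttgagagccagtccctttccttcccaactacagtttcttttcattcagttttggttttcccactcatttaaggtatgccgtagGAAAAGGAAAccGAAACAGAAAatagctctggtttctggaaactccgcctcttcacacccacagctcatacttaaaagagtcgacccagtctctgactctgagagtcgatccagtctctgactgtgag
Ifit3, chr19:34583279-34583578, plus strand: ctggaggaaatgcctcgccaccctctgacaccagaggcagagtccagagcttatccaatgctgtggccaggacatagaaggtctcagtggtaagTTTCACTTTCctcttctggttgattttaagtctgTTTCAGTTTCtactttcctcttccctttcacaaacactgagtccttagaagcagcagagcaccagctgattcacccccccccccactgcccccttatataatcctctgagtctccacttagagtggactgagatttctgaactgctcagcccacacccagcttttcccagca

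Hypoxia-inducible genes are switched on by oxygen-regulated factors, and several encode enzymes of glucose use. Of 19 tested, 5 were called lower and 1 higher, with a median log2 fold change of -0.10. Pdk1, the kinase that blocks pyruvate dehydrogenase, lay at 65.8 to 125 CPM (median 93.7) with shSCR and at 28.4 to 64.7 CPM (median 45.3) with shChREBP. The groups did not overlap, at -1.06 ± 0.16 (adjusted p = 3.4e-05), and it was called in L-G6pc+/+ livers (-0.88, adjusted p = 0.0021) and without libraries 29, 30, 32 and 33 (-0.85, adjusted p = 0.0097). Egln3, an oxygen-sensing prolyl hydroxylase, lay at 18.5 to 35.6 CPM (median 24.3) against 11.7 to 18.4 CPM (median 14.1), without overlap, at -0.76 ± 0.17 (adjusted p = 0.0036).

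The MYC antagonist Mxi1 was lower by -0.68 ± 0.15, the prolyl hydroxylase Egln1 by -0.53 ± 0.16 and Epas1, an oxygen-regulated transcription factor, by -0.48 ± 0.13. Hilpda, like G0s2 an inhibitor of adipose triglyceride lipase, was called higher at 0.68 ± 0.22 (adjusted p = 0.045), with 13.4 to 32.8 CPM against 16 to 54.2 CPM and overlapping groups. The list thus held members in both directions, and only Pdk1 was called without the 4 libraries.

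The genes of steroid and thyroid hormone metabolism act on hormones that reach the liver. Of 19 tested, 6 were called lower and none higher, and the median was -0.20, against 0.01 for all genes. Srd5a1, a steroid 5-alpha-reductase, lay at 59.5 to 157 CPM (median 116) with shSCR and at 40.7 to 97.7 CPM (median 66.4) with shChREBP, at -0.75 ± 0.17 (adjusted p = 0.0047). Its groups overlapped. Under shSCR it had been higher in L-G6pc-/- than in L-G6pc+/+ livers, by 1.09 (adjusted p = 1.1e-04).

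Hsd11b1, which regenerates active glucocorticoid, lay at 297 to 534 CPM (median 420) against 78.4 to 385 CPM (median 268), at -0.86 ± 0.20 (adjusted p = 0.006). Libraries 29, 30, 32 and 33 lay at 78.4 to 221 CPM and the other 5 at 268 to 385 CPM. Cyp17a1, given above, Dio1, the deiodinase that makes active thyroid hormone, at -0.72 ± 0.18, Akr1c14, a hydroxysteroid dehydrogenase, at -0.42 ± 0.11 and Hsd17b2, which inactivates sex steroids, at -0.45 ± 0.13 completed the list. None of the 6 was called without the 4 libraries, where the list's median was -0.08, and none was called lower in L-G6pc+/+ livers. The hepatocyte markers were low in the same libraries. Relative to the shSCR/L-G6pc-/- libraries, the mean log2 level was -0.72 to -0.21 for this list and -0.63 to -0.24 for the hepatocyte markers in libraries 29, 30, 32 and 33, and -0.23 to 0.11 and -0.27 to 0.14 in the other 5. The part of hepatocyte RNA in the list's change was not tested.

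The remaining lists are given by counts, beside 3.33% called higher and 4.23% called lower over all genes. Of 25 tested genes of gluconeogenesis and glucose handling 6 were called lower and none higher, of 26 of the tricarboxylic acid cycle and pyruvate dehydrogenase 4 lower and none higher, and of 61 of amino acid catabolism 5 lower and none higher, with medians of -0.10, -0.14 and -0.17. Without libraries 29, 30, 32 and 33 these counts were 2, 1 and 0. Cytochromes P450 of families 1 to 3 gave 4 lower and 3 higher of 33 (median -0.26), and without the 4 libraries 2 lower and none higher. CAR and PXR target genes, which respond to foreign compounds, gave 2 lower and none higher of 19 (median -0.31). Among genes picked after their values were seen, the glycolytic Gpi1 was lower by -0.70 ± 0.12 (adjusted p = 1.2e-04) and still by -0.81 without the 4 libraries (adjusted p = 0.0017). Ldha, lactate dehydrogenase A, was lower by -0.54 ± 0.13 (adjusted p = 0.0058).

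Complement genes gave 5 called lower and 1 higher of 21 (median -0.21), Cfi, a protease that inactivates complement proteins, among them at -0.50 ± 0.11 (adjusted p = 0.0047), and none was called without the 4 libraries. Hepatokines and the IGF axis gave 5 lower and 2 higher of 26, with the activin subunits Inhbe at -0.97 ± 0.24 and Inhba at -0.86 ± 0.23, and Selenop, the plasma selenium carrier, at -0.43 ± 0.09. Without the 4 libraries none of the 26 was called lower and 1 higher. The male-biased, growth hormone dependent genes split, with 6 called higher and 2 lower of 33. In L-G6pc+/+ livers 6 were called higher and 1 lower, beside 2.16% higher and 3.23% lower over all genes there. Without the 4 libraries, 2 were called higher and 1 lower. Cyp7b1, an oxysterol hydroxylase, was higher by 1.07 ± 0.24 and by 1.05 in L-G6pc+/+ livers (adjusted p = 0.008).

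Of 30 extracellular matrix genes 4 were called higher and 2 lower (median 0.22), and without the 4 libraries 1 higher and none lower (median 0.11). Nid1, which links basement membrane proteins, lay at 9.35 to 19 CPM (median 13) with shSCR and at 20 to 60 CPM (median 23) with shChREBP, without overlap, at 1.28 ± 0.21 (adjusted p = 1.6e-04). Libraries 29, 30, 32 and 33 lay at 28.2 to 60 CPM and the other 5 at 20 to 23 CPM. Col4a1, a collagen of basement membranes, was higher by 0.61 ± 0.15. The 57 cytosolic ribosomal protein genes tested had a median of 0.01 with 1 called. None of the 10 tested genes in the list of mitochondrially encoded genes, which does not hold mt-Tc, was called. The same held for the 26 respiratory complex II to IV and the 19 YAP and TEAD target genes.

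Between the genotypes, 549 genes (5.39%) were called for shChREBP in L-G6pc+/+ livers, 220 (2.16%) higher and 329 (3.23%) lower. In both genotypes 39 genes were called higher and 98 lower. The test of the difference called 8 genes, 6 (0.0589%) with the higher value in L-G6pc-/- and 2 (0.0196%) with the lower, and 1226 had an unadjusted p under 0.05. For Hsd17b13, a lipid droplet enzyme, the shChREBP effect was 0.36 in L-G6pc-/- and -0.66 in L-G6pc+/+ livers, and for D10Wsu102e it was 0.34 and -0.58. Srxn1, the oxidative stress enzyme sulfiredoxin, had effects of 2.10 and -0.31, and Cyp2a5, a P450, of 1.37 and -0.41. Esf1, a nucleolar protein, had effects of 0.49 and -0.31, and Tgfbr2, a TGF-beta receptor, of -0.40 and 0.85. Ifit3b and Cyp2d40, described above, were the remaining genes. The count depended on the fit, with 73 genes by DESeq2, which included all 8, and 4 by limma on the deposited table or by voom, all among the 8. Without libraries 29, 30, 32 and 33 it was 37, with 6 of the 8 among them, and with library sizes only 33.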

How the data were processed

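Mouse liver RNA in 33 libraries was measured by 3′ QuantSeq. Per the labels and methods, the authors aligned the reads with HISAT to GRCm38, used SAMtools and counted reads per gene with HTSeq, and deposited raw counts. The deposited normalized table holds linear signal values made by the authors with limma (voom), and its log2 was used in 1 alternative. Versions and strandedness of the counting are not given in the sources used here, so overlapping antisense genes cannot be told apart.

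The tests used edgeR 4.0.16 under R 4.3.3 (TMM, filterByExpr with minimum count 10 and minimum total 15, quasi-likelihood test, all 4 groups, two-sided, Benjamini-Hochberg adjusted p under 0.05), with limma 3.58.1 and DESeq2 1.42.0 as alternatives. This kept 10179 of 25988 genes, of which GENCODE M21 named 25817. The CPM values are TMM-scaled. In counts simulated for this comparison (3 sets, 9973 genes), 85% to 93% of 2-fold and 42% to 50% of 1.5-fold changes were recovered with 7 to 8 false calls. All simulated libraries were drawn around the mean levels of the shSCR/L-G6pc-/- libraries, with changes placed only in genes averaging 10 or more counts. No simulated library was made to stand apart as libraries 29, 30, 32 and 33 do, so these figures do not cover that feature. Total counts limit precision for genes of a few CPM.

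Members and gene lists were chosen with earlier results of these data known. Named genes were the label checks, the 6 called members with the smallest p of each described list with any called against its direction, the 12 largest rises and 12 largest falls averaging 5 CPM or more outside the set-aside lists, and those called in the test between genotypes. Genes with CTACATC and those marked as picked after their values were seen lie outside this rule. Each gene's longest 3′ UTR in GENCODE M21 was searched, and the hairpin sequences came from the study's supplement. The longest was taken over all transcripts with a coding region, so it need not be that of the gene's main transcript. Alternatives were other scalings, tests and filters, 2 groups only, each library left out, and fits without Gm42418 (4.48% to 15.0% of counts) or without libraries 29, 30, 32 and 33. The result for 1 withheld gene is not reported here.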

Additional observations from a re-analysis of the deposited data

Results flagged for a closer look

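Single libraries stood apart from their group for 8 of 144 groups of values (gap to the nearest library over the group's range above 0.526 for 8 libraries or 0.493 for 9), and chance flags about 1 in 20 groups. Among the shChREBP/L-G6pc-/- libraries, library 31 was lowest for Ifit3b (gap 0.613 of the range), library 27 for Syne4 (0.535) and library 25 for Bola1 (0.598). Among the shSCR/L-G6pc-/- libraries, library 19 was lowest for Enho (0.661) and for Alb (0.611), library 21 for D10Wsu102e (0.595) and B230219D22Rik (0.559), and library 17 was highest for Inhba (0.616).

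The shChREBP effect differed between the genotypes by the edgeR test of the difference for 8 genes. On the log2 scale, the effect in L-G6pc-/- minus that in L-G6pc+/+ livers was 1.65 for Ifit3b, -1.41 for Cyp2d40, 1.02 for Hsd17b13, 0.92 for D10Wsu102e, 2.41 for Srxn1, 1.78 for Cyp2a5, 0.80 for Esf1 and -1.25 for Tgfbr2.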

How the results depend on the processing

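Leaving out libraries 29, 30, 32 and 33 moved the most results. The count of genes changed went from 770 to 106, the hypoxia genes called lower from 5 to 1, the interferon-stimulated genes called higher from 14 to 1, the steroid and thyroid genes called lower from 6 to 0, and the called falls with CTACATC in the 3′ UTR from 74 to 10. The count that differed between genotypes went from 8 to 37. The cause was not tested, though that fit has 4 fewer libraries. With DESeq2 the count that differed between genotypes was 73, with library sizes only 33, and with limma on the deposited table or limma-voom 4. With library sizes only, 22 interferon-stimulated genes were called higher and 47 falls held CTACATC. That scaling moved the median of all genes to 0.11 on the log2 scale, and 75.8% of its calls were higher against 44.0% with TMM. The other settings gave 633 to 1119 genes changed. With each library left out in turn, the genes changed ran from 531 to 887, the hypoxia falls from 4 to 5, the interferon rises from 9 to 19 (9 without library 29 and 9 without library 32), the steroid and thyroid falls from 5 to 7 and the falls with CTACATC from 51 to 77. Of the 72 named genes, 28 kept their call under all settings run, 42 changed it without the 4 libraries, 11 under some other setting, and none reversed. No paired analysis was possible because the groups compared share no replicate numbers.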
